A study of Mus musculus with 13 samples.

Results

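The tVk12653 libraries are bulk RNA-seq of plasma cells sorted from the bone marrow of 2 mice that had received 1 transplantable tumour line, and they were set against 3 libraries of wild-type plasma cells. The 5 libraries were taken by their group labels from the 13 of the series. For tVk12653 the genotype label gives the line's name and the word recipient, with no further allele. WT mice are labelled wild-type, and all mice carry the strain label C57/BL6. A further pair of sets served where a difference from them was tested: 5 libraries of recipients of the VQ tumour lines D1, D4 and D5 (Vk*MYC with IgG1-Cre and the conditional Nras Q61R allele), and 3 libraries of V mice (Vk*MYC with IgG1-Cre). Cells were CD138+ B220- CD45.2+, and 50000 were sorted per library. Because tVk12653 is 1 line carried in 2 recipients, the spread between its libraries is that between hosts of the same tumour, and p-values measure the spread between these libraries. WT and V mice are not labelled as recipients, so transplantation and tumour cannot be told apart in these comparisons.

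Plasma cells are the antibody-secreting end stage of the B cell lineage. They have switched off much of the B cell programme and expanded the secretory endoplasmic reticulum, and most long-lived ones do not divide. Multiple myeloma is the tumour of these cells. The Vk*MYC transgene carries human MYC behind a stop codon, under kappa light-chain elements, and it is switched on when somatic hypermutation of germinal centre B cells reverts that codon. MYC pairs with MAX on E-box DNA and is best known for driving ribosome production, nucleotide synthesis and cell cycle entry, while MXD and MNT proteins compete with it for MAX.

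Total gene counts were 4126625 and 2880511 in the tVk12653 libraries and 2575570 to 3640249 in the WT libraries, within 2096815 to 8512281 over the series. Gene levels correlated more closely between the tVk12653 libraries (Spearman 0.980) than between any of them and WT (0.750 to 0.810), and WT libraries correlated at 0.957 to 0.976 among themselves. Levels below are in CPM, which adjusts each count for the depth of its library. They are not divided by gene length and are compared between libraries, not between genes. The WT libraries held more RNA of other marrow cells than the tumour libraries did. Summed neutrophil markers were 184 and 111 CPM in tVk12653 and 3755, 10441 and 4200.4 CPM in WT, with the highest sum in WT 2. S100a9, which codes for an abundant neutrophil calcium-binding protein, had 35.1 and 20.6 CPM in tVk12653, against 897, 2507 and 972 CPM in WT. Summed monocyte and macrophage markers were 136 and 183 CPM in tVk12653 and 503, 1629 and 458 CPM in WT. Summed erythroid markers were 74.4 and 79.3 CPM in tVk12653 and 232, 1211 and 304 CPM in WT, and summed T and NK cell markers were 1.62 and 0.362 CPM in tVk12653 and 114, 166 and 103 CPM in WT. WT 1 held Xist, the RNA of the inactive X, at 1481 CPM together with Y-linked Ddx3y at 47.9 CPM, whereas WT 2 and WT 3 had Xist at 2.58 and 3.98 CPM. For every gene group that was lower in tVk12653, the part of these other cells' RNA in the result was not tested. In bulk RNA, fewer cells of a type and less RNA per cell cannot be told apart.

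The tumour transcriptome differed widely from that of normal plasma cells. Of 12835 genes tested with edgeR's quasi-likelihood test, 2886 rose in tVk12653 against WT (22.5% of those tested) and 3362 fell (26.2%) at a Benjamini-Hochberg adjusted p under 0.05. At least 2-fold changes were found for 1754 of the genes that rose and 2338 of those that fell. Against the VQ lines 2709 genes were higher (21.1%) and 2319 lower (18.1%), and against V 2714 were higher (21.1%) and 3013 lower (23.5%). These comparisons share the tVk12653 libraries, so their values are given side by side. The libraries of tVk12653 and WT did not overlap for 4001 genes that were higher (31.2%) and 4449 that were lower (34.7%). Treating recipients of the same VQ line as 1 unit and the VQ lines as 1 group widened the estimated spread, and 1501 genes then rose and 1868 fell against WT. That 4-arm fit is named below where it moved a gene group's count by over 1.5 times. Among genes named below, it also ended the calls of Mycl, Nras, Impdh2, Ppat, Gmnn, Ttk, Prc1, Ccnd1, Cdkn1a, Cdkn2a, Bcl2, Bcl2l11, Cyld, Jchain, Xbp1, Tnfrsf17, Pou2af1, Fkbp11, Cd9, Blnk, Herpud1, Slc7a11, Psmb8, Psmb10, B2m, Gbp2, Oas3, Isg15, Ptprc, Cxcr4, Spred1, Bmi1, Myt1l, Arhgap27, Acbd4, Plekhm1, Gosr2 and Trib1.

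**Figure D1:**
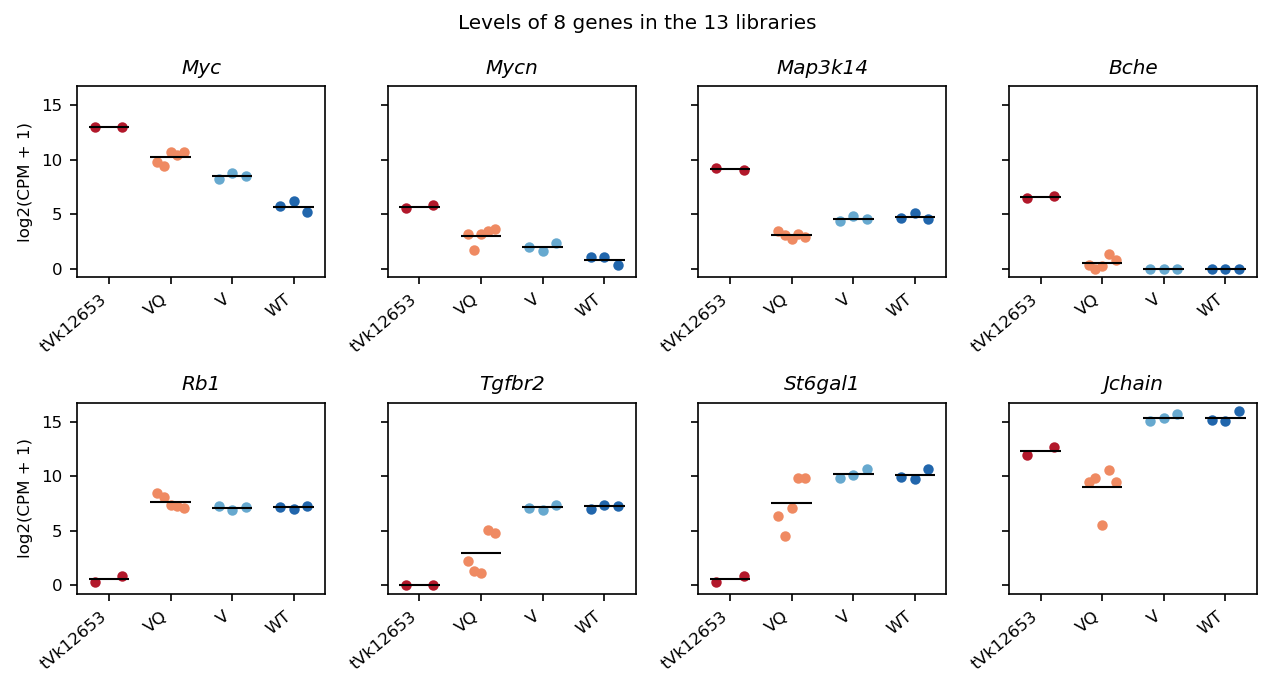
Levels of 8 genes in each library, as log2(CPM + 1) on the vertical axis, for tVk12653, VQ, V and WT from left to right; points are libraries and lines are group means. Myc, Mycn, Map3k14 and Bche sit higher in both tVk12653 libraries than in any WT library, and Rb1, Tgfbr2, St6gal1 and Jchain sit lower.

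Myc was far higher in the tumour than in normal plasma cells. Myc (chr15:61985341-61990361) had 7999.8 and 8200.4 CPM in tVk12653, against 51.4, 72.2 and 34.97 CPM in WT (log2 fold change 7.27 ± 0.29, adjusted p = 4.3e-09). The VQ libraries held 902, 687, 1650.1, 1351 and 1665 CPM and the V libraries 307, 430.1 and 364 CPM, so both tumour recipients lay above every other library of the series. The log2 fold change was 2.69 ± 0.21 against the VQ lines (adjusted p = 1.2e-06), and against V it was 4.46 ± 0.25 (adjusted p = 7.4e-08). How many reads of the human transgene counted toward the mouse gene is not given in the sources used here. Of the 12 MYC and MAX network genes tested, 7 rose and 1 fell, with a median log2 fold change of 0.94 against -0.06 over all genes tested. Mycn, the neural and embryonic MYC paralog, had 46.5 and 55.1 CPM in tVk12653, against 1.06, 1.11 and 0.284 CPM in WT (log2 fold change 5.97 ± 0.56, adjusted p = 1.2e-06). Mycl, the remaining paralog, had 5.09 and 7.61 CPM in tVk12653, against 1.06, 0.369 and 0.853 CPM in WT (log2 fold change 2.99 ± 0.95, adjusted p = 0.019), a call lost without tVk12653 2 (adjusted p = 0.096). Among the partners, Mlxip, a glucose-sensing MLX partner, had 423 and 484 CPM in tVk12653, against 155, 182 and 207 CPM in WT (log2 fold change 1.32 ± 0.14, adjusted p = 3.8e-06), and the repressor gene Mnt had 138 and 168 CPM in tVk12653, against 56.7, 61.6 and 67.7 CPM in WT (log2 fold change 1.30 ± 0.18, adjusted p = 3.7e-05). Mlx was the member that fell, with 44.8 and 32.6 CPM in tVk12653, against 66.9, 58.2 and 87.6 CPM in WT (log2 fold change -0.86 ± 0.19, adjusted p = 0.0021). Max itself, the shared partner, had 48.5 and 35.9 CPM in tVk12653, against 54.6, 73.4 and 48.6 CPM in WT and did not pass the test (adjusted p = 0.11).

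Genes of ribosome production and of the supply of building blocks rose in tVk12653. Of 30 nucleolar ribosome biogenesis genes tested, 22 rose and none fell, with a median log2 fold change of 0.96. Fbl codes for fibrillarin, the methyltransferase that modifies ribosomal RNA, and had 24.96 and 37.7 CPM in tVk12653, against 8.10, 11.4 and 9.10 CPM in WT (log2 fold change 1.71 ± 0.27, adjusted p = 0.00012). Ncl, which codes for the nucleolar phosphoprotein nucleolin, had 2396 and 2367 CPM in tVk12653, against 947, 949.6 and 880.2 CPM in WT (log2 fold change 1.36 ± 0.14, adjusted p = 3.1e-06). Rrp12, an export factor of pre-ribosomes, had 70.3 and 77.2 CPM in tVk12653, against 21.5, 29.9 and 17.1 CPM in WT (log2 fold change 1.70 ± 0.22, adjusted p = 2.4e-05). For these 3 genes the groups did not overlap. Nhp2, a protein of the RNAs that guide pseudouridylation, rose with a log2 fold change of 1.67 ± 0.22 (adjusted p = 3.1e-05). The same list was lower in tVk12653 than in the VQ lines, where 24 of the 30 genes were lower and 1 was higher, with a median of -0.86. Ncl had 2987, 2949, 2590.4, 5587 and 6179 CPM in the VQ libraries (tVk12653 minus VQ -0.58 ± 0.14, adjusted p = 0.0037). Against V, 19 were higher and 1 lower.

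Of 24 nucleotide and polyamine synthesis genes tested, 14 rose and 3 fell against WT. Ppat, whose enzyme opens purine synthesis, had 76.7 and 91.6 CPM in tVk12653, against 30.6, 27.6 and 38.9 CPM in WT (log2 fold change 1.37 ± 0.21, adjusted p = 0.00011). Impdh2, the enzyme that commits purines to guanine nucleotides, rose with a log2 fold change of 1.35 ± 0.36 (adjusted p = 0.0062). The members that fell included X-linked genes of substrate supply and polyamines. Prps2, which makes the ribose donor of nucleotide synthesis, had 0 and 0 CPM in tVk12653, against 28.2, 21.01 and 37.8 CPM in WT, at least 26.7-fold lower against a floor of 3 counts per library, and 0.269, 0.652, 3.23, 35.8 and 38.6 CPM in the VQ libraries. Sms, spermine synthase, had 0.462 and 0 CPM in tVk12653, against 8.10, 14.4 and 7.96 CPM in WT over 2 counts in tVk12653 in all, a WT level 35.2-fold (95% interval 9.45 to 295) that of tVk12653. Odc1, the entry enzyme of polyamine synthesis and a classical MYC target, had 80.2 and 203 CPM in tVk12653, against 364, 152 and 163 CPM in WT, with overlapping groups and an adjusted p of 0.23. Of 20 translation factors tested, 10 rose and none fell. Eef1b2, a subunit of the elongation factor that exchanges guanine nucleotides, had 1212 and 1328 CPM in tVk12653, against 336, 309 and 289 CPM in WT (log2 fold change 2.03 ± 0.13, adjusted p = 5.1e-08). Of 28 nuclear oxidative phosphorylation genes tested, 18 rose and 1 fell, with a median of 0.58. Uqcrq, a complex III subunit, had 276 and 272 CPM in tVk12653, against 129, 92.5 and 108 CPM in WT (log2 fold change 1.32 ± 0.17, adjusted p = 2.7e-05), and complex III also held the member that fell, Uqcrc1, with 86.2 and 88.4 CPM in tVk12653, against 126, 126 and 133 CPM in WT (log2 fold change -0.56 ± 0.12, adjusted p = 0.0014). Set against the VQ lines, these lists ran the other way, with 11 translation factors lower and none higher, and 10 oxidative phosphorylation genes lower and 1 higher. In the 4-arm fit 14 nucleolar, 2 nucleotide and polyamine, 5 translation and 11 oxidative phosphorylation genes rose.

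The canonical E-box, CACGTG, was looked for in the 250 bases upstream of the start site of the genes with a RefSeq promoter. A gene counted once, if any of its promoters held the motif. Among genes with a promoter, the E-box stood in 9.87% of all genes tested and in 11.2% of those that rose. It stood in 1 of the 19 nucleolar genes that rose (5.26%). That promoter belongs to Nop2, a ribosomal RNA methyltransferase gene with 79.1 and 68.1 CPM in tVk12653, against 27.8, 32.4 and 27.6 CPM in WT (log2 fold change 1.34 ± 0.17, adjusted p = 1.8e-05). It is shown because it is the single match among the nucleolar genes that rose, at GRCm38.p6 chr6:125131633-125131882, plus strand, with the E-box in capitals and its first base 60 bases before the start site.
Nop2: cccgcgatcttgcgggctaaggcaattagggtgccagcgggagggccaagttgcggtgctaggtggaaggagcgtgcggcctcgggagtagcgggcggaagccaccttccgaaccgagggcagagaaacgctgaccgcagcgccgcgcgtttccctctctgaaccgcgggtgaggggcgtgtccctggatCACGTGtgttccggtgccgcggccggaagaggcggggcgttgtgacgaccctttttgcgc
A match of letters is a description of the window and says nothing about MYC occupancy.

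How many proliferation genes were called higher in the tumour rested on 1 normal library. Of 28 DNA replication genes tested, 7 rose and none fell, close to the share of all genes that rose. Of 28 mitosis genes 4 rose and none fell. Without WT 2 the numbers that rose were 17 and 22, and without V 2 there were 7 mitosis genes. Mki67, the proliferation antigen, had 1975 and 2370.4 CPM in tVk12653, against 932, 1608 and 906 CPM in WT (adjusted p = 0.074), and WT 2 was the highest of the WT libraries. Without WT 2 its adjusted p was 0.044. Mcm6, a subunit of the replicative helicase, had 453 and 421 CPM in tVk12653, against 141, 202 and 148 CPM in WT (log2 fold change 1.42 ± 0.20, adjusted p = 6.2e-05). Foxm1, the transcription factor of the mitotic programme, had 84.4 and 106 CPM in tVk12653, against 24.9988, 41.7 and 15.4 CPM in WT (log2 fold change 1.82 ± 0.41, adjusted p = 0.0042), and WT 2 again stood above WT 1 and WT 3. Prc1, which bundles the midzone microtubules of the spindle, had 88.1 and 134 CPM in tVk12653, against 33.8, 62.3 and 37.2 CPM in WT (log2 fold change 1.32 ± 0.28, adjusted p = 0.002). Gmnn, whose protein geminin blocks relicensing of origins, rose with a log2 fold change of 1.45 ± 0.30 (adjusted p = 0.0011), Prim1, the primase, with 1.37 ± 0.24 (adjusted p = 0.00029), and Ttk, a spindle checkpoint kinase, with 1.41 ± 0.41 (adjusted p = 0.011). Against V, the MYC transgenic cells without a transplanted tumour, 17 genes of each list were higher and none lower. Against the VQ lines 9 replication genes were lower and 2 higher, and 8 mitosis genes were lower and none higher. These lines were not alike. Replication genes summed to 1854 and 2028 CPM in tVk12653. D5 exceeded this (3545 and 3727 CPM), whereas D4 fell short of it (1034 CPM) and D1 had 1853 and 2366 CPM. Mitosis genes summed to 3354 and 4157 CPM in tVk12653. D4 was again lower (2644 CPM), D1 was higher (4397 and 5634 CPM) and D5 was highest (8898 and 8170 CPM). In the 4-arm fit 2 replication genes and 1 mitosis gene rose against WT.

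At the G1 restriction point the tumour lacked almost all Rb1 RNA. Rb1, the retinoblastoma tumour suppressor that holds E2F factors in check, had 0.231 and 0.724 CPM in tVk12653, against 142, 122 and 154 CPM in WT (adjusted p = 1.8e-09). The tVk12653 counts were 3 in all, and the WT level was 333-fold (95% interval 114 to 1615) that of tVk12653. The VQ libraries held 135 to 347 CPM and the V libraries 120.2 to 157 CPM, so this loss was not seen in the other 11 libraries. Rb1 was also lower than in the VQ lines (adjusted p = 4.2e-10) and V (adjusted p = 1.2e-09). Of the 20 G1 cyclins and inhibitors tested, 6 rose and 5 fell, not far from the shares of all genes tested (22.5% and 26.2%). Cdk6, a kinase that phosphorylates the retinoblastoma protein with D cyclins, had 1.39 and 0.362 CPM in tVk12653, against 95.1, 87.4 and 59.1 CPM in WT (log2 fold change -6.32 ± 0.91, adjusted p = 0.00034). Ccnd1, a D cyclin, had 0.231 and 0.724 CPM in tVk12653, against 2.82, 9.58 and 1.99 CPM in WT over 3 tVk12653 counts, a WT level 10.7-fold (95% interval 3.41 to 53.9) that of tVk12653, with a call lost without WT 2 or either tVk12653 library (adjusted p = 0.11 to 0.25). Ccnd2, another D cyclin, had 1737 and 2308 CPM in tVk12653, against 1249.6, 222 and 168 CPM in WT (adjusted p = 0.14), with WT 1 apart from the other WT libraries, and an adjusted p of 0.0083 without WT 1. Cdkn2a, the locus of p16 and p19ARF, had 16.2 and 11.2 CPM in tVk12653, against 3.17, 1.84 and 2.56 CPM in WT (log2 fold change 2.43 ± 0.52, adjusted p = 0.0018), and Cdkn1a, which codes for p21, had 21.03 and 19.9 CPM in tVk12653, against 7.75, 4.79 and 1.99 CPM in WT (log2 fold change 2.11 ± 0.47, adjusted p = 0.0028). Ccne2, an E cyclin that drives S phase entry, rose with a log2 fold change of 1.76 ± 0.24 (adjusted p = 3.1e-05).

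Targets of p53 were mostly higher in the tumour, while BCL2 family genes went both ways. Of 18 p53 pathway genes tested, 10 rose and 3 fell, with a median log2 fold change of 1.07. Aen, an apoptosis-enhancing nuclease, had 112 and 111 CPM in tVk12653, against 26.4, 23.2 and 24.7 CPM in WT (log2 fold change 2.17 ± 0.16, adjusted p = 1.7e-07). Zmat3, an RNA-binding p53 target, had 126 and 139 CPM in tVk12653, against 34.5, 25.1 and 24.4 CPM in WT (log2 fold change 2.24 ± 0.19, adjusted p = 4.4e-07). Aen lies on chromosome 7, whose genes were raised as a whole (median log2 fold change 0.75), and Zmat3 lies elsewhere. The part of that shift in the rise of Aen was not tested. Eda2r, a death-receptor family member, had 13.6 and 8.33 CPM in tVk12653, against 0, 0 and 0 CPM in WT, at least 9.93-fold higher. Phlda3, an AKT inhibitor, had 2.08 and 4.35 CPM in tVk12653, against 0.352, 0.369 and 0 CPM in WT, with 2 WT counts in all and a ratio of 13.4-fold (95% interval 3.29 to 118). The members that fell were Gadd45a, Mdm2 and Fas. Gadd45a, a stress sensor, had 0 and 0 CPM in tVk12653, against 13.03, 33.9 and 9.95 CPM in WT, at least 17.5-fold lower, and Mdm2, the ligase that degrades p53, had 99.2 and 95.99 CPM in tVk12653, against 207, 162 and 217 CPM in WT (log2 fold change -1.002 ± 0.14, adjusted p = 5.8e-05). Trp53 itself had 50.2 and 52.9 CPM in tVk12653, against 34.9, 44.97 and 39.5 CPM in WT and did not pass the test (adjusted p = 0.057), but did without WT 2 (adjusted p = 0.028).

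Among 13 BCL2 family genes tested 4 rose and 5 fell, beside 22.5% and 26.2% of all genes tested. Pmaip1, the BH3-only gene NOXA, had 186 and 258 CPM in tVk12653, against 66.5, 39.1 and 40.1 CPM in WT (log2 fold change 2.19 ± 0.22, adjusted p = 3.4e-06). Bbc3, the BH3-only gene PUMA, had 94.8 and 124 CPM in tVk12653, against 30.3, 19.5 and 23.03 CPM in WT (log2 fold change 2.17 ± 0.22, adjusted p = 3.2e-06). Both are classical p53 targets. Bax, the pore-forming effector, had 66.8 and 56.1 CPM in tVk12653, against 19.01, 16.2 and 19.3 CPM in WT (log2 fold change 1.76 ± 0.21, adjusted p = 9.8e-06). Bbc3 and Bax also lie on the raised chromosome 7 (median 0.75), and Pmaip1 does not. The part of that shift in their rises was not tested. Bcl2l11, which codes for BIM, went the opposite way with 12.02 and 9.06 CPM in tVk12653, against 63.4, 50.1 and 54.9 CPM in WT (log2 fold change -2.39 ± 0.27, adjusted p = 6.4e-06). Bcl2, the survival protein targeted by venetoclax, had 638 and 409 CPM in tVk12653, against 189, 153 and 199 CPM in WT (log2 fold change 1.54 ± 0.29, adjusted p = 0.0015), and the VQ libraries held 101, 44.6, 8.15, 0.795 and 1.02 CPM (higher in tVk12653 by the test, adjusted p = 5.1e-07). Mcl1, the survival factor on which plasma cells are known to depend, had 476 and 476 CPM in tVk12653, against 836, 642 and 764 CPM in WT (log2 fold change -0.65 ± 0.13, adjusted p = 0.00076).

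Map3k14 was the NF-kB gene with the largest rise among those tested. It codes for NIK, the kinase that starts the alternative NF-kB pathway, and it is recurrently altered in human myeloma. Map3k14 (chr11:103219764-103267401) had 592 and 522 CPM in tVk12653, against 24.6, 33.2 and 22.5 CPM in WT (log2 fold change 4.39 ± 0.18, adjusted p = 2.0e-09). The VQ libraries held 9.96, 7.39, 5.48, 8.21 and 6.39 CPM and the V libraries 19.7, 28.1 and 22.1 CPM, so both tVk12653 libraries exceeded all others. Its log2 fold change against the VQ lines was 6.32 ± 0.18 (adjusted p = 3.1e-11) and against V it was 4.57 ± 0.19 (adjusted p = 1.2e-09). Of 20 NF-kB factors and targets tested, 4 rose and 6 fell against WT, and leaving out WT 2, tVk12653 1 or tVk12653 2 left 2 that rose. Over all genes tested 22.5% rose and 26.2% fell, so the counts against WT lay near those shares. Nfkb2, the precursor that NIK acts on, had 192 and 85.8 CPM in tVk12653, against 139, 167 and 184 CPM in WT (adjusted p = 0.53), and the tVk12653 libraries lay on either side of WT. Cd83, an activation antigen of B cells, had 0 and 1.45 CPM in tVk12653, against 92.95, 40.5 and 41.5 CPM in WT (log2 fold change -6.58 ± 0.78, adjusted p = 3.1e-05), and Tnfaip2 had 1.16 and 0 CPM in tVk12653, against 22.2, 64.9 and 15.6 CPM in WT (log2 fold change -5.57 ± 0.91, adjusted p = 0.00033). Cyld, a deubiquitinase that restrains NF-kB, had 126 and 144 CPM in tVk12653, against 295, 236 and 324 CPM in WT (log2 fold change -1.08 ± 0.18, adjusted p = 0.00022). Against the VQ lines 14 of the 20 were higher and none lower, with a median of 1.86.

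The sort antigen and a pair of core transcription factors of plasma cells did not pass the test, while several surface and secretory genes fell. Sdc1, the CD138 antigen used for the sort, had 530.5 and 1044 CPM in tVk12653, against 1005, 676 and 966 CPM in WT (adjusted p = 0.6). Prdm1, which codes for the repressor BLIMP1, had 503 and 705 CPM in tVk12653, against 677, 383 and 659 CPM in WT (adjusted p = 0.88). Irf4, a regulator that plasma cells need, had 1514 and 1840.5 CPM in tVk12653, against 1782, 941 and 1406 CPM in WT (adjusted p = 0.25). The groups overlapped for all 3, although without tVk12653 2 Sdc1 was lower in tVk12653 by the test (adjusted p = 0.019) and without WT 1 Irf4 was higher (adjusted p = 0.028). Xbp1, the regulator of secretory capacity, had 1799 and 1742 CPM in tVk12653, against 3308, 1963 and 2911 CPM in WT (log2 fold change -0.62 ± 0.19, adjusted p = 0.014). That call was lost without WT 1 or either tVk12653 library. Of 22 plasma cell genes tested, 12 fell and 3 rose (Pou2af1, Fkbp11 and Cd9), with 1 that rose without tVk12653 1. Jchain, the joining chain of polymeric antibody, had 3995 and 6739.5 CPM in tVk12653, against 37053, 33543 and 64456 CPM in WT (log2 fold change -3.07 ± 0.45, adjusted p = 0.00033). The V libraries held 34857 to 55190.0 CPM and the VQ libraries 44.5 to 1509 CPM, so tVk12653 lay between those lines and the normal cells. Mzb1, a chaperone of immunoglobulin assembly, had 6.70 and 7.24 CPM in tVk12653, against 293, 275 and 363 CPM in WT (log2 fold change -5.48 ± 0.25, adjusted p = 3.5e-09).

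Surface genes of long-lived plasma cells also fell. Cd93, a receptor that maintains them in marrow, had 0.231 and 0 CPM in tVk12653, against 279, 279 and 361 CPM in WT, 1 tVk12653 count in all and a WT level 2202-fold (95% interval 395 to 87014) that of tVk12653. Cd38, the target of daratumumab in people, had 0 and 0 CPM in tVk12653, against 23.2, 20.6 and 26.2 CPM in WT, at least 21.5-fold lower. Cd28, a costimulatory receptor for survival signals, had 7.86 and 2.17 CPM in tVk12653, against 112, 89.2 and 143 CPM in WT (log2 fold change -4.39 ± 0.52, adjusted p = 7.6e-05). Tnfrsf17, which codes for the therapy target BCMA, had 20.6 and 23.9 CPM in tVk12653, against 149, 82.9 and 129 CPM in WT (log2 fold change -2.44 ± 0.35, adjusted p = 0.00017). No values of Cd93 overlapped between the groups, nor did those of the other 3 genes. Against the VQ lines 4 of the 22 plasma cell genes were higher and 5 lower, near the shares of all genes tested (21.1% and 18.1%).

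Most genes of B cell identity and receptor signalling were lower in the tumour, and 5 of them were at 0. Of 25 B cell identity and receptor signalling genes tested, 19 fell and 1 rose, with a median log2 fold change of -3.83, or -3.29 with genes at 0 in a group set to their bound. Ms4a1, the CD20 antigen, had 0 and 0 CPM in tVk12653, against 57.4, 98.1 and 94.1 CPM in WT, at least 76.5-fold lower. Blk, a B cell Src-family kinase, had 0 and 0 CPM in tVk12653, against 36.97, 57.1 and 57.99 CPM in WT, at least 46.7-fold lower. Cd22, an inhibitory lectin, had 0 and 0 CPM in tVk12653, against 11.97, 72.99 and 13.9 CPM in WT, at least 30.3-fold lower, with WT 2 far above WT 1 and WT 3. Pax5, the factor of B cell identity, had 0.462 and 0 CPM in tVk12653, against 49.6, 173 and 17.6 CPM in WT over 2 tVk12653 counts, a WT level 262-fold (95% interval 72.3 to 2169) that of tVk12653, and WT 2 was again highest. Some signalling members fell but stayed well above 0. Syk, the kinase that the B cell receptor activates, had 221 and 180.0 CPM in tVk12653, against 564, 641 and 584 CPM in WT (log2 fold change -1.57 ± 0.14, adjusted p = 8.5e-07), and Plcg2, a phospholipase downstream of it, had 182 and 202 CPM in tVk12653, against 554, 512 and 553 CPM in WT (log2 fold change -1.49 ± 0.12, adjusted p = 4.1e-07). Swap70 did not pass the test, with 454 and 457 CPM in tVk12653, against 498, 416 and 501 CPM in WT (adjusted p = 0.78). Blnk, the adaptor downstream of the B cell receptor, was the member that rose, with 453 and 375 CPM in tVk12653, against 324, 202 and 263 CPM in WT (log2 fold change 0.65 ± 0.18, adjusted p = 0.0078), a call lost without tVk12653 1 (adjusted p = 0.080). The number of WT cells still at a B cell stage is not known, and its part in these falls was not tested. In the 4-arm fit 12 B cell and 6 plasma cell genes fell, and no plasma cell gene rose.

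**Figure D2:**
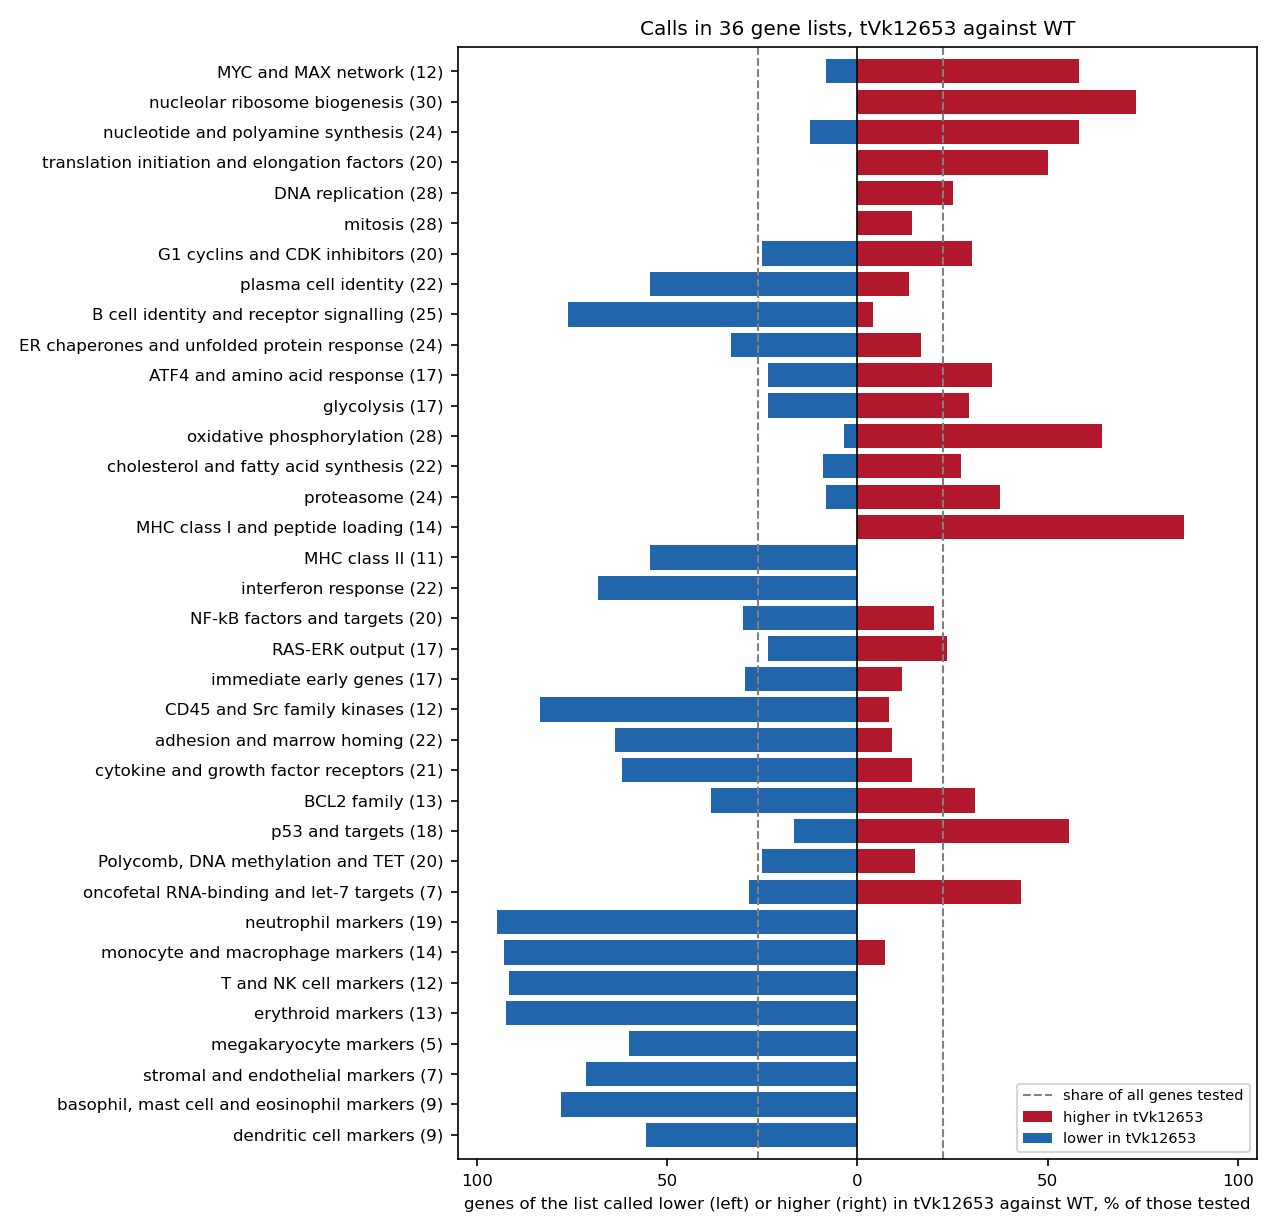
Share of each list's tested genes that fell (left) or rose (right) in tVk12653 against WT, in percent, for 36 lists; dashed lines give the share of all genes tested, 26.2% lower and 22.5% higher. Nucleolar, MHC class I and oxidative phosphorylation genes extend far past the right line, and B cell, interferon, CD45 and marrow cell lists past the left line.

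Of 24 chaperone and unfolded protein response genes tested, 8 fell and 4 rose, near the shares of all genes tested, with a median of -0.02. Sel1l, the adaptor of the ligase that clears misfolded proteins from the endoplasmic reticulum, had 9379 and 10784 CPM in tVk12653, against 3842, 1962 and 2324 CPM in WT (log2 fold change 1.90 ± 0.25, adjusted p = 6.8e-05). The largest falls were those of Dnajc3, Herpud1 and Calr. Calr and Herpud1 lie on chromosome 8 and Dnajc3 on chromosome 14, whose genes were lower as wholes (median log2 fold changes -0.81 and -0.83). The part of those shifts in these falls was not tested. Calr, the lectin chaperone calreticulin, had 1063 and 1295 CPM in tVk12653, against 2798, 2533 and 3120.1 CPM in WT (log2 fold change -1.26 ± 0.14, adjusted p = 5.3e-06), Dnajc3, a co-chaperone, had 339 and 332 CPM in tVk12653, against 878, 677 and 1006 CPM in WT (log2 fold change -1.35 ± 0.15, adjusted p = 7.5e-06), and Herpud1, a stress-induced clearance factor, had 407 and 715 CPM in tVk12653, against 1331, 1159.7 and 1628 CPM in WT (log2 fold change -1.29 ± 0.24, adjusted p = 0.00077). Against V 13 of the 24 were lower and 3 higher, and against the VQ lines 14 were lower and 2 higher.

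Of 17 ATF4 and amino acid response genes tested, 6 rose and 4 fell, and without WT 2 or without tVk12653 1 the number that rose was 3. Over all genes tested the shares were 22.5% higher and 26.2% lower. Ddit4, the mTORC1 inhibitor REDD1, had 75.6 and 247 CPM in tVk12653, against 7.75, 11.1 and 14.5 CPM in WT (log2 fold change 3.83 ± 0.57, adjusted p = 0.00049), with tVk12653 2 well above tVk12653 1. Slc7a11, the cystine importer, had 43.7 and 31.9 CPM in tVk12653, against 7.75, 12.2 and 3.41 CPM in WT (log2 fold change 2.33 ± 0.55, adjusted p = 0.0055). Ddit3, the stress factor CHOP, fell instead, with 10.6 and 12.7 CPM in tVk12653, against 58.4, 48.7 and 50.9 CPM in WT (log2 fold change -2.18 ± 0.38, adjusted p = 0.00046). Of 24 proteasome genes tested, 9 rose and 2 fell, and 4 rose without tVk12653 2. Psmb10, an immunoproteasome subunit, fell with 17.3 and 23.2 CPM in tVk12653, against 49.9977, 56.4 and 44.9 CPM in WT (log2 fold change -1.33 ± 0.20, adjusted p = 0.0001), while Psmb8, another immunoproteasome subunit, had 402 and 498 CPM in tVk12653, against 298, 232 and 249.6 CPM in WT (log2 fold change 0.79 ± 0.14, adjusted p = 0.00044).

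A few lipid synthesis genes rose. Of 22 cholesterol and fatty acid synthesis genes tested, 6 rose and 2 fell, and the median was 0.05. The number that rose was near the overall share (22.5%), and the number that fell was under it (26.2%). For the members named next the groups did not overlap. Scd2, a fatty acid desaturase, had 887 and 514 CPM in tVk12653, against 156, 96.9 and 101 CPM in WT (log2 fold change 2.57 ± 0.30, adjusted p = 5.8e-05), and Sqle, the epoxidase of the sterol pathway, had 65.4 and 103 CPM in tVk12653, against 15.5, 12.5 and 14.5 CPM in WT (log2 fold change 2.55 ± 0.23, adjusted p = 8.2e-07). Fasn, fatty acid synthase, rose with a log2 fold change of 1.56 ± 0.13 (adjusted p = 3.1e-07). Of 17 glycolysis genes tested 5 rose and 4 fell, or 2 fell without tVk12653 1. The glycolysis counts were not far from the shares of all genes tested (22.5% and 26.2%). Ldha, the lactate dehydrogenase subunit that favours lactate production, had 142 and 144 CPM in tVk12653, against 48.6, 72.6 and 38.1 CPM in WT (log2 fold change 1.44 ± 0.24, adjusted p = 0.00041), and Pfkl, a phosphofructokinase, fell with 39.3 and 30.4 CPM in tVk12653, against 79.9, 88.8 and 83.9 CPM in WT (log2 fold change -1.26 ± 0.15, adjusted p = 1.4e-05). Slc16a3, a lactate exporter, had 0.693 and 0 CPM in tVk12653, against 10.9, 43.1 and 7.96 CPM in WT over 3 tVk12653 counts, a WT level 45.8-fold (95% interval 15.4 to 224) that of tVk12653.

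Antigen presentation split by class. Of 14 MHC class I and peptide loading genes tested, 12 rose against WT and none fell, with a median of 0.96, and 12 were also higher than in the VQ lines with none lower. H2-D1, a classical class I heavy chain, had 3392 and 4565 CPM in tVk12653, against 1029, 885 and 746 CPM in WT (log2 fold change 2.17 ± 0.16, adjusted p = 1.7e-07), and H2-K1, the other classical heavy chain, had 3998 and 4923 CPM in tVk12653, against 1684, 1334 and 1291 CPM in WT (log2 fold change 1.63 ± 0.15, adjusted p = 1.2e-06). The VQ libraries held 1744, 2005, 804, 435 and 372 CPM of H2-K1 (tVk12653 minus VQ 2.40 ± 0.14, adjusted p = 1.9e-08). B2m, the invariant light chain of class I molecules, had 5009 and 6280.2 CPM in tVk12653, against 3674, 2440.2 and 3092 CPM in WT (log2 fold change 0.88 ± 0.17, adjusted p = 0.00086), and did not differ by the test from V (log2 fold change 0.36 ± 0.17, adjusted p = 0.1). Values of H2-Q7 and H2-Q6, which rose by 2.35 ± 0.29 and 1.81 ± 0.25 on the log2 scale, are uncertain, since reads of these near-identical genes can be shared. The 2 members not called were H2-T23 and Nlrc5.

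Class II genes did the reverse against WT. Of 11 tested, 6 fell and none rose, although 3 fell when tVk12653 1 was left out and 1 rose without tVk12653 1 or WT 2. H2-Aa, the class II alpha chain, had 0.231 and 0.724 CPM in tVk12653, against 36.97, 186 and 62.3 CPM in WT with 3 tVk12653 counts in all, a WT level 216-fold (95% interval 73.6 to 1049) that of tVk12653. H2-Ab1, its beta chain partner, had 9.01 and 13.04 CPM in tVk12653, against 184, 319.6 and 225 CPM in WT (log2 fold change -4.49 ± 0.52, adjusted p = 8.0e-05). Cd74, the invariant chain that guides class II molecules, had 4012 and 5274 CPM in tVk12653, against 4151, 2889 and 3171 CPM in WT (adjusted p = 0.18), and was thus present in the tumour beside near-absent H2-Aa. Ciita, the class II activator, had 2.08 and 3.62 CPM in tVk12653, against 3.52, 59.3 and 1.99 CPM in WT (adjusted p = 0.085), and WT 2 held most of its WT counts. Without WT 2 its log2 fold change was 0.041. By contrast with the VQ lines, 6 of the 11 were higher and none lower, with a median of 1.84. That contrast takes the mean of 3 unlike lines. Summed class II genes, mostly Cd74 in tVk12653, were 4115 and 5411 CPM there. They were 3339 and 2590 CPM in D1, 2937 CPM in D4, and only 11.1 and 20.4 CPM in D5. Summed dendritic cell markers, from cells that carry class II, were 462 and 476 CPM in tVk12653 and 817, 718 and 801 CPM in WT.

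Interferon-response genes were low in tVk12653. Of 22 tested, 15 fell and none rose, with a median log2 fold change of -2.89 (-2.32 with genes at 0 set to their bound). Stat2, a signal transducer of the type I response, had 16.4 and 13.4 CPM in tVk12653, against 60.2, 56.4 and 55.2 CPM in WT (log2 fold change -1.93 ± 0.21, adjusted p = 5.6e-06). Ifih1, the sensor MDA5 of double-stranded RNA, had 0.462 and 1.09 CPM in tVk12653, against 10.6, 18.1 and 13.9 CPM in WT (log2 fold change -4.24 ± 0.58, adjusted p = 3.9e-05). Rsad2, the antiviral enzyme viperin, had 0.231 and 0.362 CPM in tVk12653, against 7.39, 27.6 and 3.98 CPM in WT, with 2 tVk12653 counts in all and a WT level 42.97-fold (95% interval 11.6 to 359) that of tVk12653. Ifi27l2a, a classical interferon-induced gene, had 0 and 0 CPM in tVk12653, against 15.8, 8.48 and 12.5 CPM in WT, at least 11.3-fold lower. Mx1 and Usp18 were also at 0 in both tVk12653 libraries, but these calls were lost without tVk12653 1 (adjusted p = 0.077 and 0.072). Against V 17 of the 22 were lower and none higher, and against the VQ lines 6 were lower and 2 higher. Leaving out tVk12653 1 left 10 that fell, and the 4-arm fit 7.

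The interferon-stimulated response element was searched as GAAA, any 2 bases and GAAA again, on both strands, in the same 250-base windows. Genes with a promoter were counted as for the E-box. The element was present in 5 of the 11 interferon genes that fell (45.5%) and in 8 of the 17 tested (47.1%). Over all genes tested it was present in 336 of the 10179 with a promoter (3.3%), and in 4.45% of those that fell. The 5 promoters are shown because they carry the element in genes of the list that fell, with all matches in capitals, from RefSeq on GRCm38.p6. They lie at chr10:128270248-128270497 on the plus strand (Stat2), chr4:156200819-156201068 on the minus strand (Isg15), chr5:120777660-120777909 on the minus strand (Oas3), chr12:26456453-26456702 on the minus strand (Rsad2) and chr3:142620413-142620662 on the plus strand (Gbp2).
Stat2: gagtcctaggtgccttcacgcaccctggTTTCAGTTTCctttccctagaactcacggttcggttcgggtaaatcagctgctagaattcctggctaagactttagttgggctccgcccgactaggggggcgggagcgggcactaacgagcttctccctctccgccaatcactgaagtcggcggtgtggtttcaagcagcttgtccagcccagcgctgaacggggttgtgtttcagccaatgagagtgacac
Isg15: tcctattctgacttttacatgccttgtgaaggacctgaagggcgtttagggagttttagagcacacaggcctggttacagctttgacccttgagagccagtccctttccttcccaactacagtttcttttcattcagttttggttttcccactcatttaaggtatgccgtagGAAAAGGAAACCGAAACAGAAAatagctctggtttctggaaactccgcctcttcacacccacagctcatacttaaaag
Oas3: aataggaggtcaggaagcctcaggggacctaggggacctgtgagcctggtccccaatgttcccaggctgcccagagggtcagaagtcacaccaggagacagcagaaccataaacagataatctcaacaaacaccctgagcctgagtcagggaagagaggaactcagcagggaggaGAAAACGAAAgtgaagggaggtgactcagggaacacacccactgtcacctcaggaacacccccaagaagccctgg
Rsad2: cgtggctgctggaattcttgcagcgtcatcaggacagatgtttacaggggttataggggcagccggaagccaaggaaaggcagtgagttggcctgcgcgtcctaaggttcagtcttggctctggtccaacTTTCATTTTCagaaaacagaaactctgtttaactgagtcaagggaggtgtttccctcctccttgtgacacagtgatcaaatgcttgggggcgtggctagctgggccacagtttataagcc
Gbp2: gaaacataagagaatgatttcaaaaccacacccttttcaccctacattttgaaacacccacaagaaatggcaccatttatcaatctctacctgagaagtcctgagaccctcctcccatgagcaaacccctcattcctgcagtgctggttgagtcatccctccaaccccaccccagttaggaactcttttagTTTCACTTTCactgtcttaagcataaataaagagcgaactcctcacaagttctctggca
The match began 222 bases before the start site in Stat2, 75 in Oas3, 120 in Rsad2 and 59 in Gbp2. In Isg15, which codes for a ubiquitin-like modifier, 3 matches overlapped, the first beginning 78 and the last 66 bases before the start. Isg15 had 0.231 and 0.362 CPM in tVk12653, against 6.34, 1.84 and 1.42 CPM in WT, with 2 tVk12653 counts in all and a WT level 10.9-fold (95% interval 2.76 to 94.7) that of tVk12653, and its call was lost without WT 1 or either tVk12653 library (adjusted p = 0.096 to 0.18). Gbp2, an interferon-induced GTPase, had 3.47 and 1.45 CPM in tVk12653, against 24.3, 12.9 and 11.7 CPM in WT (log2 fold change -2.62 ± 0.60, adjusted p = 0.0033), and Oas3, a sensor that activates RNase L, had 1.39 and 1.81 CPM in tVk12653, against 8.45, 20.6 and 6.25 CPM in WT (log2 fold change -2.87 ± 0.73, adjusted p = 0.005), a call lost without tVk12653 1 (adjusted p = 0.057). The element is part of what defines such genes, so the share describes the list and not the tumour.

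**Figure D3:**
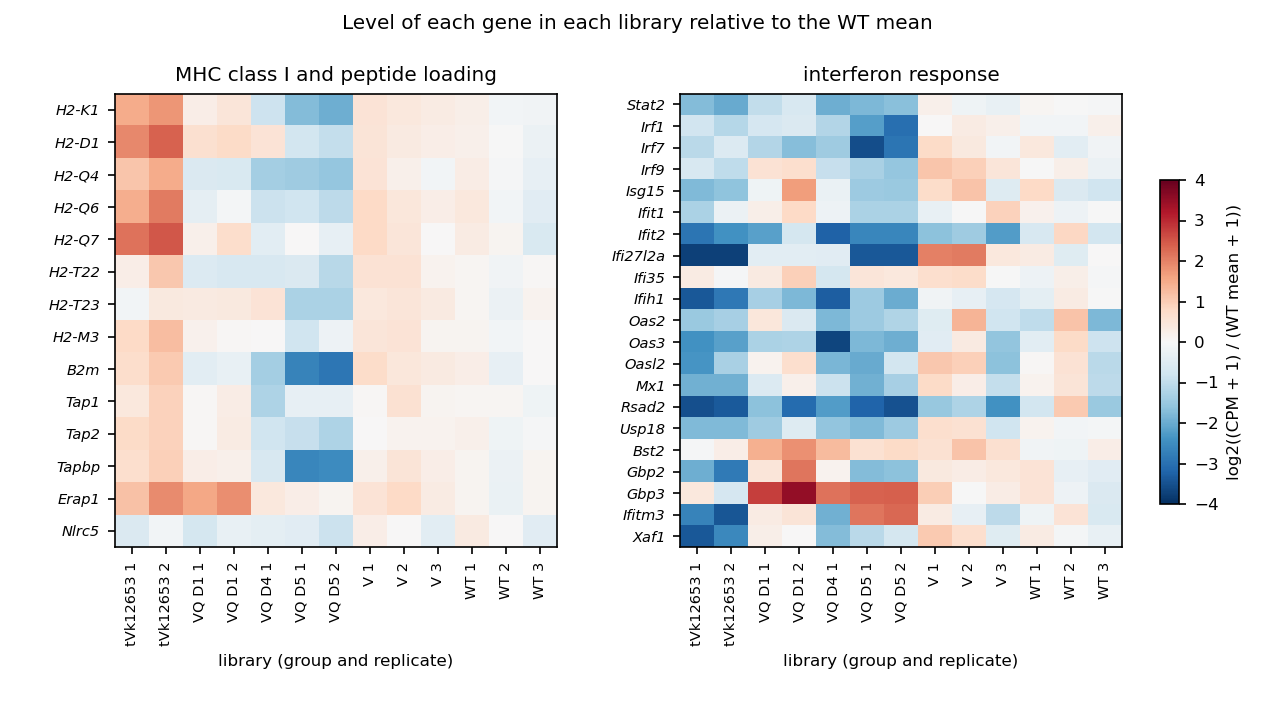
Heat maps of the MHC class I genes (left) and most interferon-response genes (right) tested, in the 13 libraries, as log2 of (CPM + 1) over (WT mean CPM + 1), with the colour scale stopped at 4 in either direction; columns run tVk12653, VQ, V and WT. Most class I genes are higher in both tVk12653 columns than in WT, and most interferon genes are lower in them.

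Signalling genes at the cell surface were mostly lower. Of 12 CD45 and Src family genes tested, 10 fell and 1 rose. Ptprc, which codes for the phosphatase CD45 and whose B220 and CD45.2 epitopes were used in the sort, had 196 and 183 CPM in tVk12653, against 543, 794 and 604 CPM in WT (log2 fold change -1.77 ± 0.24, adjusted p = 6.6e-05). VQ libraries held 1.85 and 6.65 CPM in D5, 1.69 CPM in D4 and 272 and 248 CPM in D1, so tVk12653 and D1 held this RNA at a higher level than D4 and D5. Fyn, a Src-family kinase that CD45 activates, had 0 and 0 CPM in tVk12653, against 34.2, 79.3 and 104.9 CPM in WT, at least 66.97-fold lower. Lyn, the main such kinase of B cells, had 12.7 and 7.97 CPM in tVk12653, against 120.1, 197 and 138 CPM in WT (log2 fold change -3.83 ± 0.29, adjusted p = 2.3e-07), and Ptpn6, the phosphatase SHP-1, had 58.9 and 78.96 CPM in tVk12653, against 334, 446 and 327 CPM in WT (log2 fold change -2.43 ± 0.24, adjusted p = 3.5e-06). Src itself was the member that rose, with 13.6 and 15.9 CPM in tVk12653, against 2.82, 1.11 and 1.99 CPM in WT (log2 fold change 2.87 ± 0.42, adjusted p = 7.6e-05). Cd200, an immune-inhibitory ligand, had 0.462 and 1.09 CPM in tVk12653, against 16.5, 23.6 and 38.4 CPM in WT (log2 fold change -5.14 ± 0.76, adjusted p = 0.0002).

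Of 21 cytokine and growth factor receptor genes tested, 13 fell and 3 rose. Tgfbr2, the ligand-binding receptor of TGF-beta, had 0 and 0 CPM in tVk12653, against 126, 167 and 155 CPM in WT, at least 138-fold lower, while V libraries held 133, 122 and 165 CPM and VQ libraries 3.77, 1.52, 1.12, 32.3 and 26.8 CPM. Jak1, the kinase shared by interferon and IL-6 receptors, had 1.62 and 0 CPM in tVk12653, against 199.6, 309 and 266 CPM in WT (log2 fold change -8.001 ± 0.43, adjusted p = 4.8e-08), against 124, 128, 22.1, 255 and 237 CPM in the VQ libraries. Il7r had 0 and 0 CPM in tVk12653, against 31.3, 30.96 and 5.40 CPM in WT, at least 20.8-fold lower, and Kit, the stem cell factor receptor, had 0.231 and 0 CPM in tVk12653, against 60.2, 58.2 and 28.9975 CPM in WT with 1 tVk12653 count, a WT level 337-fold (95% interval 60.1 to 13329.5) that of tVk12653. Other marrow cells also express both. The 3 that rose belong to the axes of IL-6 and IGF1, known growth factors of myeloma. Igf1r had 623 and 809 CPM in tVk12653, against 194, 165 and 153 CPM in WT (log2 fold change 2.07 ± 0.14, adjusted p = 7.1e-08), Il6st, the signalling chain gp130, had 612 and 606 CPM in tVk12653, against 289, 175 and 249.6 CPM in WT (log2 fold change 1.36 ± 0.18, adjusted p = 3.2e-05), and Il6ra rose with a log2 fold change of 1.18 ± 0.17 (adjusted p = 5.2e-05).

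Of 22 adhesion and marrow homing genes tested, 14 fell and 2 rose. Itgb2, the common beta chain of leukocyte integrins, had 14.6 and 20.3 CPM in tVk12653, against 351, 479 and 427 CPM in WT (log2 fold change -4.61 ± 0.25, adjusted p = 2.0e-08). S1pr1, the receptor for exit from tissues, had 0 and 0.362 CPM in tVk12653, against 4.93, 23.6 and 4.26 CPM in WT with 1 tVk12653 count in all, a WT level 72.7-fold (95% interval 12.7 to 2900.1) that of tVk12653. Neutrophils and lymphocytes also express Itgb2, and WT 2 held its highest level. Cxcr4, the receptor that holds plasma cells in marrow, was among the genes that rose, with 214 and 195 CPM in tVk12653, against 114, 142 and 104.6 CPM in WT (log2 fold change 0.77 ± 0.18, adjusted p = 0.0027).

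Of 17 genes of RAS-ERK output tested, 4 rose and 4 fell against WT, near the shares of all genes tested. Without tVk12653 1, 2 were lower, and without WT 3 or tVk12653 2, 2 were higher. Nras had 54.1 and 46.7 CPM in tVk12653, against 36.6, 36.1 and 36.1 CPM in WT (log2 fold change 0.48 ± 0.16, adjusted p = 0.021), a difference lost without tVk12653 1 (adjusted p = 0.14). Egr1, an immediate early gene induced by ERK, had 0 and 0.724 CPM in tVk12653, against 1066, 282 and 359.6 CPM in WT, and Egr3, its relative, had 0 and 0 CPM in tVk12653, against 114, 35.4 and 15.6 CPM in WT. For Egr1, with 2 tVk12653 counts in all, the WT level was 1975-fold (95% interval 546 to 16312) that of tVk12653, and Egr3 was at least 50.8-fold lower. Klf2, a quiescence factor, had 0 and 1.09 CPM in tVk12653, against 461, 205 and 187 CPM in WT, a WT level 657-fold (95% interval 225 to 3188) that of tVk12653. Not all early genes fell: of 17 immediate early genes tested 5 fell and 2 rose, against 8 that fell and none that rose without tVk12653 2 and 4 that rose without tVk12653 1, and Fos had 227 and 2346 CPM in tVk12653, against 3421, 958 and 1184 CPM in WT (adjusted p = 0.72). Spry1, a feedback inhibitor of the pathway, rose with 5.32 and 32.96 CPM in tVk12653, against 0.704, 1.84 and 0.569 CPM in WT (log2 fold change 4.18 ± 0.85, adjusted p = 0.0021), whereas Spred1, another inhibitor, fell with 0.231 and 0.362 CPM in tVk12653, against 13.4, 15.1 and 5.97 CPM in WT over 2 tVk12653 counts, a WT level 39.1-fold (95% interval 10.5 to 327) that of tVk12653. Against the VQ lines, which carry the activated Nras allele, 8 of the 17 pathway genes were lower and 1 higher. Spry4, a further feedback inhibitor, had 0 and 0.362 CPM in tVk12653, from 1 count in all, against 96.9, 70.1, 34.7, 194 and 228 CPM in the VQ libraries (adjusted p = 7.4e-08). Etv4, an ETS factor induced by ERK, had 0.231 and 0.724 CPM in tVk12653, from 3 counts in all, against 15.3, 6.84, 13.8, 34.98 and 43.7 CPM in the VQ libraries (adjusted p = 4.1e-05). Its relative Etv5 had 6.70 and 10.1 CPM in tVk12653, against 64.3, 33.02, 73.9, 221 and 179 CPM in the VQ libraries (tVk12653 minus VQ -3.44 ± 0.30 on the log2 scale, adjusted p = 1.3e-06).

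Chromatin and developmental regulators changed in single members. Of 20 Polycomb, DNA methylation and TET genes tested, 3 rose and 5 fell, below the overall shares, with 1 that rose without tVk12653 2 and 3 that fell without tVk12653 1. Dnmt3a, a de novo DNA methyltransferase, had 3.70 and 12.3 CPM in tVk12653, against 68.3, 64.5 and 78.5 CPM in WT (log2 fold change -3.24 ± 0.40, adjusted p = 3.1e-05). Bmi1, a Polycomb repressive complex subunit, had 47.4 and 48.5 CPM in tVk12653, against 169.7, 114 and 156 CPM in WT (log2 fold change -1.61 ± 0.17, adjusted p = 4.4e-06), and Tet2, an enzyme that oxidises methylcytosine, fell with a log2 fold change of -1.33 ± 0.16 (adjusted p = 1.6e-05). Of 7 oncofetal RNA-binding genes and let-7 targets tested, 3 rose and 2 fell, against 1 that rose and 1 that fell without tVk12653 2 and 3 and 0 without tVk12653 1. The number that fell was 1 without WT 3, and the 4-arm fit left 1 in each direction. Lin28b, a fetal RNA-binding protein that blocks let-7 maturation, had 56.2 and 65.6 CPM in tVk12653, against 0, 0 and 0.284 CPM in WT, with 1 WT count in all and a ratio of 543-fold (95% interval 96.9 to 21487). It was also present in the VQ lines, at 3.71 and 6.65 CPM in D5, 51.3 CPM in D4 and 76.97 and 90.5 CPM in D1.

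Several of the genes with the largest rises are better known from other tissues. Bche (chr3:73635805-73708436), which codes for butyrylcholinesterase of liver and plasma, had 88.1 and 97.8 CPM in tVk12653, against 0, 0 and 0 CPM in WT, at least 84.04-fold higher. It was at 0.269, 0, 0.14, 1.59 and 0.767 CPM in the VQ libraries and at 0 in all V libraries. Nt5el had 85.8 and 80.1 CPM in tVk12653, against 0, 0 and 0 CPM in WT, at least 74.97-fold higher, and was at 0 in the other 11 libraries. Sis, the intestinal sucrase-isomaltase, had 177 and 426 CPM in tVk12653, against 0, 0 and 0.284 CPM in WT, with 1 WT count in all and a ratio of 2485-fold (95% interval 445 to 98186) and was also found in VQ D1 at 99.04 and 71.2 CPM. Rfx6, a transcription factor of pancreatic endocrine cells, had 183 and 157 CPM in tVk12653, against 0.352, 0 and 0 CPM in WT, a ratio of 1569-fold (95% interval 281 to 62036), and Gpr158, an orphan receptor of neurons, had 171 and 161 CPM in tVk12653, against 0, 0.369 and 0 CPM in WT, a ratio of 1514-fold (95% interval 271 to 59862). Igsf10 had 303 and 312 CPM in tVk12653, against 0.352, 0.369 and 0 CPM in WT, a ratio of 1388-fold (95% interval 384 to 11470.3), and Lrp1b, a giant lipoprotein receptor relative, had 153 and 178 CPM in tVk12653, against 0.352, 0 and 0.284 CPM in WT, a ratio of 737-fold (95% interval 203 to 6090.2). Of these 7, all but Sis stayed under 6 CPM in every VQ, V and WT library. Nxf3, an RNA export factor relative on the X chromosome, was at least 41.1-fold higher than in WT, and Slc47a1, a drug and cation exporter, at least 37.3-fold higher. Slc47a1 had 39.6, 46.5, 10.7, 8.21 and 4.601 CPM in the VQ libraries and Spats2 had 221 and 206 CPM in tVk12653, 148, 147, 215, 103 and 113 CPM in the VQ libraries and 0.352, 0 and 0 CPM in WT, a ratio of 1955-fold (95% interval 350.3 to 77254) between tVk12653 and WT. The other genes named by the same rule were Lhfpl4, Atp6ap1l, Myt1l, Ddo and Lrrtm4, all at 0 in WT. At 0 in all WT libraries and averaging at least 8 CPM in tVk12653 were 24 genes.

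Losses were more numerous than gains at this extreme, since 159 genes averaging at least 8 CPM in WT were at 0 in both tVk12653 libraries. That number includes markers of other marrow cells, such as Csf3r. A loss also required 0 in 2 libraries, whereas a gain required 0 in the 3 of WT. The part of either in the difference was not tested. St6gal1, which caps antibody and surface glycans with sialic acid, had 0.231 and 0.724 CPM in tVk12653, against 964, 863 and 1627 CPM in WT with 3 tVk12653 counts in all, a WT level 2812-fold (95% interval 962 to 13639.6) that of tVk12653. V libraries held 940.4, 1079 and 1571 CPM, and VQ libraries held 82.6, 21.4, 134, 918 and 914 CPM. Thbd, the anticoagulant receptor thrombomodulin, had 0 and 0 CPM in tVk12653, against 104.9, 121 and 131 CPM in WT, at least 109-fold lower. Btla, an inhibitory receptor of lymphocytes, had 0 and 0 CPM in tVk12653, against 73.6, 117 and 132 CPM in WT, at least 99.1-fold lower, and Fcmr, the Fc receptor for IgM, had 0 and 0 CPM in tVk12653, against 93.3, 96.6 and 64.8 CPM in WT, at least 78.1-fold lower. Cd180, a Toll-like receptor relative of B cells, had 0 and 0 CPM in tVk12653, against 44.7, 84.04 and 67.9 CPM in WT, at least 60.3-fold lower. Btla and Fcmr were under 2 CPM in every VQ library too, and Thbd and Cd180 were lower in tVk12653 than in the VQ lines by the test (adjusted p = 0.014 and 0.017). Serpina3f, Samsn1, Stx7, Atp11a and Retreg1 completed the list and were at 0 in both tVk12653 libraries.

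Differences were unevenly spread over the chromosomes. Among 9410 genes averaging at least 8 CPM, the median log2 fold change was -0.01. On chromosome 7 the median over 698 genes was 0.75, with 60.3% of them higher and 10.7% lower. On chromosome 8 it was -0.81 over 489 genes, with 57.7% lower, and on chromosome 14 -0.83 over 305 genes, with 64.6% lower. The shifts were alike in all 6 pairs of a tVk12653 with a WT library, at 0.673 to 0.795 for chromosome 7, -0.815 to -0.691 for chromosome 8 and -0.827 to -0.731 for chromosome 14. Every stretch of about 25 genes on chromosome 7 had a positive median and each one on chromosome 8 a negative median, whereas the first stretch of chromosome 14 (chr14:7817921-20393634) had a median of 0.18. The medians of the other autosomes and X stayed between -0.29 (chromosome 10) and 0.19 (chromosome 11). Some stretches within them went further. Those of chromosome 17 included medians of -0.88 (chr17:28587648-31607693), 0.79 (chr17:33742484-34201454) and 0.71 (chr17:35126402-35916440). Chromosomes 9 and 11 had stretches at 0.73 (chr9:46282976-53575627) and 0.81 (chr11:87663087-94556862). In the VQ lines the pattern differed: chromosome 8 was low in D1 (-0.742 and -0.756), chromosome 5 was low in D1 and D4 (-0.806, -0.841 and -0.847), chromosome 15 was raised in D4 (0.744), chromosome 3 was raised in D5 (0.513 and 0.518), and chromosome 14 lay between -0.05 and 0.08. No measure of DNA copy number was used here. Nor did the gene group counts and single-gene values above take account of chromosome or stretch, and the part of these shifts in them was not tested. Chromosome was stated for only some of the named genes, so others may also lie where levels were shifted. Without the genes of these 3 chromosomes, an alternative chosen after these medians were seen, 2341 genes rose and 2550 fell.

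**Figure D4:**
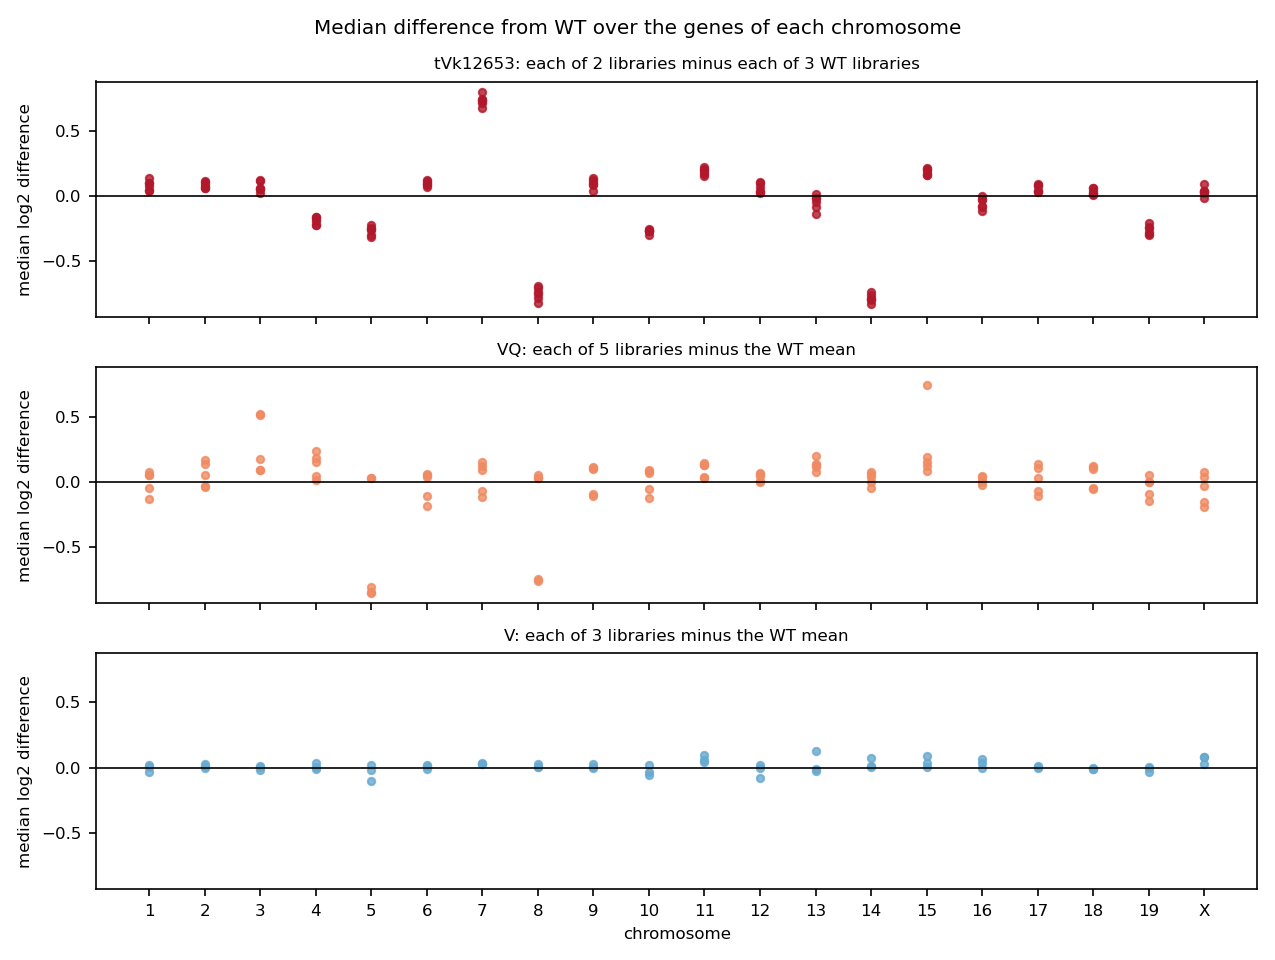
Median log2 difference of gene levels from WT by chromosome (1 to 19 and X), for the 6 pairs of tVk12653 and WT libraries (top), the 5 VQ libraries (middle) and the 3 V libraries (bottom). Chromosome 7 is raised and chromosomes 8 and 14 are lowered in every tVk12653 pair, while V stays near 0.

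Neighbours of the genes with the sharpest changes were examined after their values were seen. Rb1 lies on chromosome 14 (chr14:73192858-73325951). Next to it on one side, Rcbtb2 had 1.16 and 0.362 CPM in tVk12653, against 162, 106 and 156 CPM in WT (log2 fold change -7.34 ± 0.34, adjusted p = 3.5e-09), and Lpar6, which lies inside Rb1, had 0 and 0 CPM in tVk12653, against 6.69, 10.3 and 5.40 CPM in WT, at least 6.87-fold lower. These 2 genes therefore shared the near-absence of Rb1 in tVk12653, while the VQ libraries held 213, 222, 104, 67.6 and 71.6 CPM of Rcbtb2. The 2 sides of Rb1 differed further out. Beyond Lpar6, Itm2b rose with 4407 and 7075 CPM in tVk12653, against 994, 835 and 945 CPM in WT (log2 fold change 2.63 ± 0.18, adjusted p = 8.1e-08), Med4, the one after it, had 29.1 and 35.1 CPM in tVk12653, against 23.2, 37.97 and 32.98 CPM in WT (adjusted p = 0.94), and Sucla2 fell with 20.8 and 22.1 CPM in tVk12653, against 36.6, 40.9 and 39.8 CPM in WT (log2 fold change -0.87 ± 0.18, adjusted p = 0.0014). Beyond Rcbtb2 all 3 genes shown fell. Cysltr2 had 4.16 and 8.33 CPM in tVk12653, against 20.4, 14.4 and 25.9 CPM in WT (log2 fold change -1.74 ± 0.44, adjusted p = 0.0048), and Fndc3a had 239.7 and 248 CPM in tVk12653, against 1236, 833 and 1232 CPM in WT (log2 fold change -2.17 ± 0.18, adjusted p = 3.9e-07). Gfra2 had 0 and 0 CPM in tVk12653, against 7.39, 5.53 and 1.14 CPM in WT, at least 4.31-fold lower (adjusted p = 0.0095). It did not exceed 0.795 CPM in any VQ or V library. Without tVk12653 1 the calls of Cysltr2 and Gfra2 were lost (adjusted p = 0.081 and 0.068). Reads of overlapping genes such as Rb1 and Lpar6 may not be separable.

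The genes directly beside Map3k14 fell. Fmnl1, the adjacent gene on 1 side, had 3.00485 and 3.62 CPM in tVk12653, against 140.5, 306 and 223 CPM in WT (log2 fold change -6.08 ± 0.52, adjusted p = 6.8e-06), and Arhgap27 on the other side had 13.6 and 16.7 CPM in tVk12653, against 26.1, 43.9 and 33.5 CPM in WT (log2 fold change -1.19 ± 0.26, adjusted p = 0.0018). Fmnl1 was low in the VQ libraries too, at 17.5, 7.60, 0.843, 48.5 and 41.4 CPM. It did not differ by the test from the VQ lines (adjusted p = 0.19), and V libraries held 123, 174 and 161 CPM. The 3 genes beyond Fmnl1 rose, by less than Map3k14 did. Hexim2 had 24.7 and 21.01 CPM in tVk12653, against 8.10, 4.79 and 4.26 CPM in WT (log2 fold change 2.01 ± 0.36, adjusted p = 0.00043), Hexim1 had 112 and 84.4 CPM in tVk12653, against 68.7, 51.97 and 64.8 CPM in WT (log2 fold change 0.67 ± 0.20, adjusted p = 0.014), and Acbd4 had 35.1 and 47.1 CPM in tVk12653, against 27.1, 15.5 and 22.5 CPM in WT (log2 fold change 0.91 ± 0.25, adjusted p = 0.0075). Beyond Arhgap27, Plekhm1 fell with 69.3 and 50.7 CPM in tVk12653, against 82.04, 105.4 and 89.6 CPM in WT (log2 fold change -0.61 ± 0.18, adjusted p = 0.01), and Gosr2 fell with 94.5 and 89.1 CPM in tVk12653, against 146, 117 and 146 CPM in WT (log2 fold change -0.57 ± 0.14, adjusted p = 0.0032). The calls of Acbd4 and Plekhm1 were lost without tVk12653 2 (adjusted p = 0.093 and 0.12), and that of Hexim1 without tVk12653 1 (adjusted p = 0.16). Next to Myc, the long non-coding RNA Pvt1 had 0 and 0 CPM in tVk12653, against 4.23, 2.95 and 3.70 CPM in WT, at least 3.33-fold lower, and Trib1, a pseudokinase gene upstream, had 609 and 971 CPM in tVk12653, against 469, 345 and 424 CPM in WT (log2 fold change 0.94 ± 0.20, adjusted p = 0.0018). Lratd2, between Trib1 and Myc, had 0.462 and 0 CPM in tVk12653, against 8.45, 9.58 and 3.13 CPM in WT. It had 2 tVk12653 counts in all, and the WT level was 23.8-fold (95% interval 6.32 to 201) that of tVk12653. VQ libraries held 0, 0.109, 31.0, 0 and 0 CPM of Lratd2. Genes farther out went both ways, with Washc5 at a mean of 130 CPM against 81.3 CPM in WT and Efr3a at 32.6 against 87.99 CPM. The rise of Myc was thus not shared by Pvt1 or Lratd2.

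**Figure D5:**
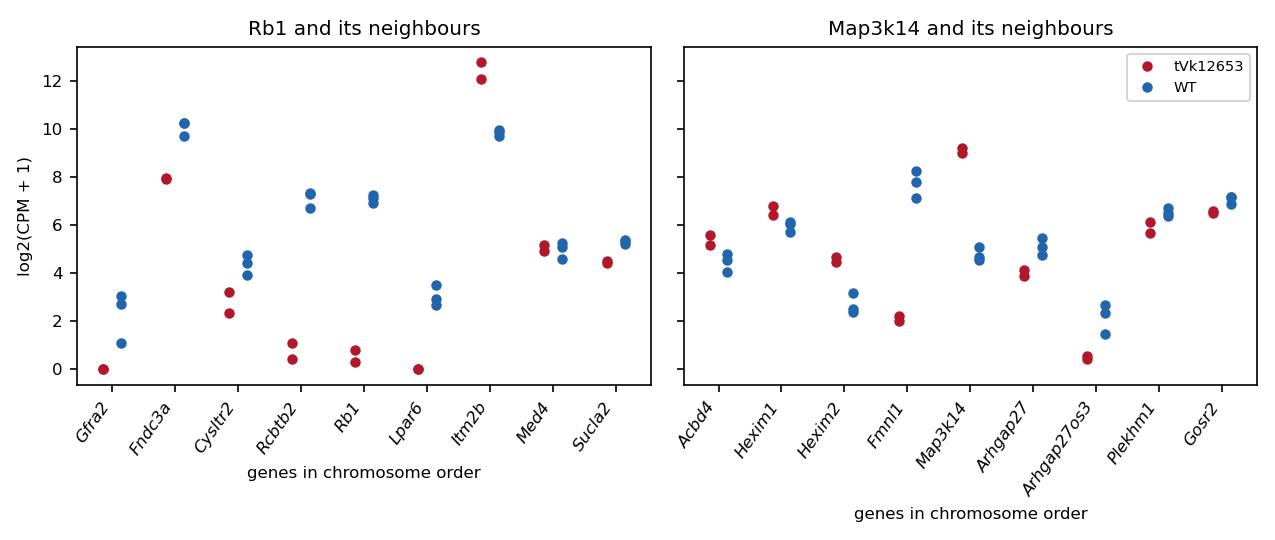
Levels of Rb1 (left) and Map3k14 (right) with 4 neighbours on each side in genome order, as log2(CPM + 1); red points are the 2 tVk12653 libraries and blue points the 3 WT libraries. Rcbtb2, Rb1 and Lpar6 are near 0 in tVk12653 beside high Itm2b, and Map3k14 is high beside low Fmnl1.

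Markers of other marrow cells fell as groups, with 18 of 19 neutrophil, 13 of 14 monocyte and macrophage, 11 of 12 T and NK cell and 12 of 13 erythroid markers lower and 1 marker higher in all. Lyz2, lysozyme of myeloid cells, had 7.17 and 3.98 CPM in tVk12653, against 347, 1332 and 326 CPM in WT, and Csf3r, the granulocyte growth factor receptor, had 0 and 0 CPM in tVk12653, against 36.3, 119 and 23.03 CPM in WT. Prg2, an eosinophil granule protein, had 6.24 and 16.3 CPM in tVk12653, against 361, 373 and 551 CPM in WT (log2 fold change -5.33 ± 0.58, adjusted p = 6.4e-05). The marker that rose was Cd68, a lysosomal membrane protein used as a macrophage marker, with 108 and 164 CPM in tVk12653, against 20.4, 40.2 and 29.6 CPM in WT (log2 fold change 2.17 ± 0.34, adjusted p = 0.0003), although 5 of the monocyte and macrophage markers were at 0 in both tVk12653 libraries, Cd14 and Fcgr1 among them. Of the 16 T and NK cell markers listed, 12 were at 0 there, Cd3e, Cd3d and Cd3g among them, and of the erythroid markers Hba-a2, Hbb-b1 and Trim10 were. Of the scarcer cell types, 3 of 5 megakaryocyte, 5 of 7 stromal and endothelial, 7 of 9 basophil, mast cell and eosinophil, and 5 of 9 dendritic cell markers tested fell and none rose. Without tVk12653 1 these numbers were 1, 4, 4 and 3, and without tVk12653 2 they were 2, 4, 3 and 3. Basophil, mast cell and eosinophil calls numbered 4 without WT 2 or VQ D4 1 and 3 in the 4-arm fit, and megakaryocyte calls 5 without WT 1. A stromal marker rose without WT 1. Summed stromal and endothelial markers were 16.4 and 15.6 CPM in tVk12653 and 116, 142 and 91.3 CPM in WT, and summed basophil, mast cell and eosinophil markers were 17.6 and 21.4 CPM in tVk12653 and 501, 461 and 618 CPM in WT. Prg2 made up most of the basophil, mast cell and eosinophil sum in each WT library. Summed megakaryocyte markers were 3.24 and 4.71 CPM in tVk12653 and 11.6, 53.4 and 23.6 CPM in WT. T and NK cell calls numbered 7 without WT 2, without tVk12653 1 or without tVk12653 2. In the test with the VQ lines none of the 19 neutrophil markers passed the test, and against V 17 were lower.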

How the data were processed

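The deposited table gives unnormalised counts of reads by gene symbol in 13 libraries of sorted mouse marrow plasma cells, made with a stranded total RNA kit for picogram input. Reads were aligned with STAR 2.6.1d to GRCm38.p6, per the submitters' processing notes. Not given in the sources used here were the counting tool, annotation, strand setting and filters, so reads of overlapping, antisense and near-identical genes may be mixed. The table lists no immunoglobulin segments. Of 22997 symbols, 22000 matched a RefSeq gene of GRCm38.p6, from which coordinates and promoters come.

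Libraries were grouped by their labels into tVk12653, VQ D1, VQ D4, VQ D5, V and WT, and 1 mean per group was fitted over all 13, so that differences between VQ lines did not enter the spread (edgeR 4.0.16, R 4.3.3, 7 residual degrees of freedom, robust quasi-likelihood F test). Low genes were dropped by edgeR's own rule (a minimum of 10 counts, 15 in total), library sizes were scaled by the TMM method, and p-values were adjusted by Benjamini and Hochberg over the 12835 genes left, with calls at 0.05. The contrast with the VQ lines took the mean of the 3 lines. Errors are standard errors, taken as the log2 fold change over the root of F. A gene at 0 in a group was set against a floor of 3 counts in the shallowest library of that group (1.09 CPM for tVk12653, 1.11 for WT). Where set against WT, genes with 1 to 3 counts in a group have the ratio of pooled normalised counts with an exact 95% interval, and floors and intervals cover counting error only. The fit was tested on simulated data.

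Members and gene lists were chosen with earlier results of these data known, so no p is adjusted over a list. Named were the 15 largest changes in each direction with at least 8 CPM and no overlap of groups, outside marker lists and predicted, ribosomal protein, histone, mitochondrial and small RNA genes. Up to 4 called genes with the largest changes were named from each of 36 lists. Myc, Sdc1, Ptprc, Nras, Jchain, Irf4, Prdm1, Xbp1, Xist and Ddx3y, the 3 most abundant markers of each cell type, the 5 most abundant genes at 0 in a group, and the 5 largest changes called alike against V and VQ were added. Other genes were named after their values were seen, and a few genes that the rule names are not reported here. Alternatives were other scaling, filters, tools, groupings, a fold threshold of 1.5, a replicate block and leaving out each library. Replicate numbers of tVk12653 and WT share no source in the labels. DESeq2 1.42.0, limma 3.58.1, Python 3.11.15, pandas 2.3.3 and matplotlib 3.10.9 were also used.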

Additional observations from a re-analysis of the deposited data

How the results depend on the processing

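Limits are few recipients of 1 line, the spread taken from 7 residual degrees of freedom, and depth: a gene at 0 is known only to lie under about 1 CPM. With 1 library left in tVk12653, it was assumed to vary like the other groups. The 4-arm fit gave 1501 genes higher and 1868 lower against WT, 500 and 712 against the VQ lines, and 1228 and 1543 against V, and the calls it made included 52% of the genes called higher and 55.5% of those called lower against WT in the reported fit. A fold threshold of 1.5 gave 1688 and 2212 against WT, 1367 and 892 against the VQ lines, and 1518 and 1826 against V. Leaving out 1 library at a time gave 2279 to 2891 higher and 2504 to 3335 lower against WT, 1905 to 2873 higher and 1463 to 2602 lower against the VQ lines, and 2035 to 2839 higher and 2217 to 3175 lower against V. Against the VQ lines the lower count was 1463 without tVk12653 1 and 1537 without tVk12653 2. DESeq2 (2697 and 3287 against WT), relative log expression scaling (2869 and 3384), no low count filter (2933 and 3367), a minimum count of 30 (2733 and 3064), the groups compared alone (2422 and 2742) and no X and Y genes (2813 and 3263) stayed within 1.5 times. Without the 20 most abundant genes the shares evened out, at 3114 higher and 3143 lower, 49.8% higher against 46.2%. With the replicate block 2724 rose and 3241 fell against WT, and 2537 and 2844 against V; same-numbered tVk12653 and WT libraries did not deviate together (r = -0.037 and 0.031), so they share only a number. Over 258 named genes and all settings, 5902 values kept their direction and side of the threshold, 161 lost the call, 27 gained it and 14 changed sign. The 14 sign changes were in genes that did not pass the test in the reported fit, and all were leave-outs of a library except Swap70, at 0.0077 without the 20 most abundant genes. Over all leave-outs the log2 fold change ran over -0.82 to 0.18 for Tfrc, -0.059 to 0.29 for Bst2, -0.73 to 0.26 for Sdc1, -0.19 to 0.32 for Prdm1, -3.49 to 0.041 for Ciita, -0.60 to 0.013 for Etv5, -3.03 to 0.36 for Fos, -0.11 to 0.41 for H2-T23, -0.15 to 0.18 for Med4 and -0.91 to 0.23 for Nfkb2. The causes were not tested.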

Other observations

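Genes that differed 10-fold or more also lay side by side in the genome. Over 9990 genes in genome order with a mean of at least 8 CPM in a group, 753 were 10-fold lower in tVk12653 than in WT (7.54%) and 266 were 10-fold higher (2.66%). Runs of at least 4 adjacent genes numbered 11 among the lower and 1 among the higher, and they were picked out after the values were seen. The longest run of lower genes, on chromosome 7, joined Hbb-bt with a cluster of Trim genes, which code for antiviral ligases of the interferon response. Trim30a had 2.31 and 2.90 CPM in tVk12653, against 57.4, 59.7 and 53.2 CPM in WT (log2 fold change -4.46 ± 0.38, adjusted p = 6.0e-07), whereas among the VQ lines D1 held 59.7 and 64.2 CPM, D4 2.11 CPM and D5 3.44 and 1.02 CPM. Trim12c had 0.462 and 2.17 CPM in tVk12653, against 20.8, 22.1 and 24.4 CPM in WT (log2 fold change -4.23 ± 0.44, adjusted p = 3.3e-06), although the median of chromosome 7 was raised. Other lower runs held S100a8 and S100a9 of neutrophils, the Ms4a family around the CD20 gene, myeloid Trem and Clec genes, and 4 genes of the Y chromosome. Those 4 Y-linked genes were under 1 CPM in every V and VQ library too, so WT alone held their RNA at a higher level. The run of higher genes comprised 6 clustered protocadherins, neuronal adhesion molecules. Pcdhb14 had 37.7 and 31.5 CPM in tVk12653, against 0.352, 0.369 and 0 CPM in WT, with 2 WT counts in all and a ratio of 160.0-fold (95% interval 43.8 to 1329). Pcdhb17 had 42.8 and 35.1 CPM in tVk12653, against 0.352, 1.47 and 0.853 CPM in WT (log2 fold change 5.42 ± 0.56, adjusted p = 3.1e-06), and 25.8, 25.6, 11.2, 0 and 1.79 CPM in the VQ libraries. Reads can be shared among these related genes.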
